A study of Mus musculus with 24 samples.

Results

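The 44 genes described here encode factors that build ribosomes in the nucleolus. They were taken from a fixed list of symbols, and all 44 were found among the 36528 genes of the deposited count files and had enough reads to be tested. RNA with a polyA tail was sequenced from organoids grown from mouse small intestine, which are self-organising cultures of intestinal epithelium. There were 6 groups of 4 libraries: dFz7-21, Fz7-21S and DMSO (the vehicle) at 24 h, and the same treatments at 6 h. According to the series text, dFz7-21 is a peptide blocker of Frizzled 7, a receptor for Wnt proteins. The labels give no dose, strain, age or culture medium, and of Fz7-21S they give the name alone.

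Ribosomes are assembled in the nucleolus, where RNA polymerase I transcribes the large ribosomal RNA precursor. Particles guided by small nucleolar RNAs (snoRNAs) modify that precursor, and assembly factors fold, cut and export the 40S (small) and 60S (large) subunits. The transcription factor Myc is known to activate many of these genes through DNA sites called E-boxes, and Myc is itself a Wnt target in intestinal crypts. The question put to the data was whether the nucleolar genes moved with Myc when Frizzled 7 was blocked.

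Libraries held 20.4 M to 33.1 M counts (median 25.1 M). Epithelial markers (6 genes, Epcam and Cdh1 among them) summed to 6640 to 7290 CPM in dFz7-21, 6270 to 7630 CPM in Fz7-21S and 6160 to 6630 CPM in DMSO libraries at 24 h. At 6 h their sums were 12100 to 12600 CPM, 11300 to 11700 CPM and 9880 to 11300 CPM for dFz7-21, Fz7-21S and DMSO. CPM here are counts scaled by TMM factors to a common library size. Mesenchymal markers (8 genes) stood apart in 3 libraries. They summed to 812 CPM in dFz7-21 24 h replicate 3, and to 166 and 126 CPM in DMSO 6 h replicates 1 and 2, against at most 14.1 CPM in the others. Dcn and Lum, markers of the same cells, were at 0 in all 24 libraries. A different library, Fz7-21S 24 h replicate 4, had short gene models high and long ones low relative to its 3 companions. Among the members, Nhp2 was higher by 0.80 and Gar1 by 0.70 there on the log2 scale, while Polr1b differed by -0.56. Across the 44 members the Spearman correlation of model length with that difference was -0.66, as a description. These 4 libraries are the ones said below to stand apart. Counts and calls that changed without them are given in part, not for every member and comparison.

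Ribosome biogenesis genes were modestly lower with dFz7-21 than with DMSO at both times. At 24 h, 24 of the 44 members fell and 0 rose, and the median log2 change of the members was -0.20. No member changed as much as 2-fold, and the changes ran from -0.45 for Rrp1b to 0.10 for Bop1, with 42 of 44 below 0. Over all 15429 genes tested, 17.7% were called lower and 18.2% higher, and the median log2 change was -0.005. Calls throughout are those of edgeR's quasi-likelihood test at a Benjamini-Hochberg adjusted p under 0.05. Scaling by library totals alone, without TMM factors, called 36 members lower, and over all genes 4006 lower and 2035 higher, beside 2733 and 2804 with TMM. At an unadjusted p below 0.05 edgeR had 30 members lower and 1 higher (22.3% of all genes in each direction), and DESeq2 called 24 lower and 1 higher. Without the 3 libraries with mesenchymal transcripts 19 members were lower and 0 higher. The share of all genes in that fit is not given here. When each of the 8 libraries was left out in turn, 17 of the 24 calls held in every fit, and those of Rrn3, Nolc1, Imp4, Noc4l, Rrs1, Nip7 and Grwd1 were lost in at least 1. Leaving out DMSO replicate 3 lost none of them, and each of the other 7 libraries was behind at least 1 of these losses. In bulk samples, fewer cells of a type and less RNA per cell cannot be told apart.

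Averaged over the members, the log2 CPM at 24 h was 6.24 ± 0.05 with dFz7-21, 6.47 ± 0.07 with Fz7-21S and 6.45 ± 0.03 with DMSO (SD, n = 4 each). At 6 h the averages were 6.88 ± 0.04 with dFz7-21, 7.03 ± 0.02 with Fz7-21S and 7.04 ± 0.03 with DMSO. At either time every dFz7-21 library lay below every other library. Gene by gene, all 4 dFz7-21 libraries lay below all 4 DMSO libraries for 27 of 44 members at 24 h, against 19.0% of all genes tested. At 6 h this held for 29 of 44 members, against 10.8% of all genes.

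**Figure D1:**
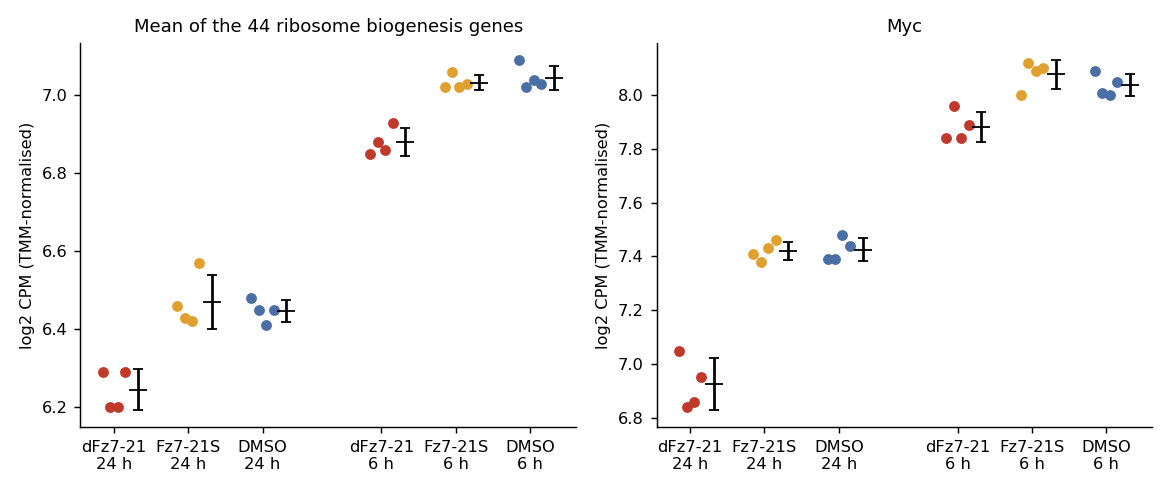
Mean log2 CPM of the 44 ribosome biogenesis genes (left) and log2 CPM of Myc (right) in each of the 24 libraries, with group mean ± SD in black (n = 4). The dFz7-21 libraries average 6.24 against 6.45 for DMSO at 24 h and 6.88 against 7.04 at 6 h, and all groups are lower at 24 h than at 6 h.

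Myc had 132, 115, 116 and 124 CPM in the dFz7-21 libraries at 24 h, against 167, 168, 179 and 173 CPM in the DMSO libraries. The groups did not overlap, and the log2 change was -0.50 ± 0.05 (SE; edgeR adjusted p = 1.49e-08). At 6 h Myc had 229, 249, 229 and 237 CPM with dFz7-21, against 272, 258, 255 and 264 CPM with DMSO. That difference was smaller, at -0.15 ± 0.05 (edgeR adjusted p = 0.0358), and it missed the threshold in 7 of the 8 fits that left out 1 library (all but the one without dFz7-21 replicate 2), as well as without the 3 libraries with mesenchymal transcripts (adjusted p = 0.259). At 24 h none of the 44 members had a larger fall than Myc, whereas at 6 h 23 of them did (13 when set against Fz7-21S). The median of the members was -0.20 beside -0.50 for Myc at 24 h, and -0.16 beside -0.15 at 6 h.

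**Figure D2:**
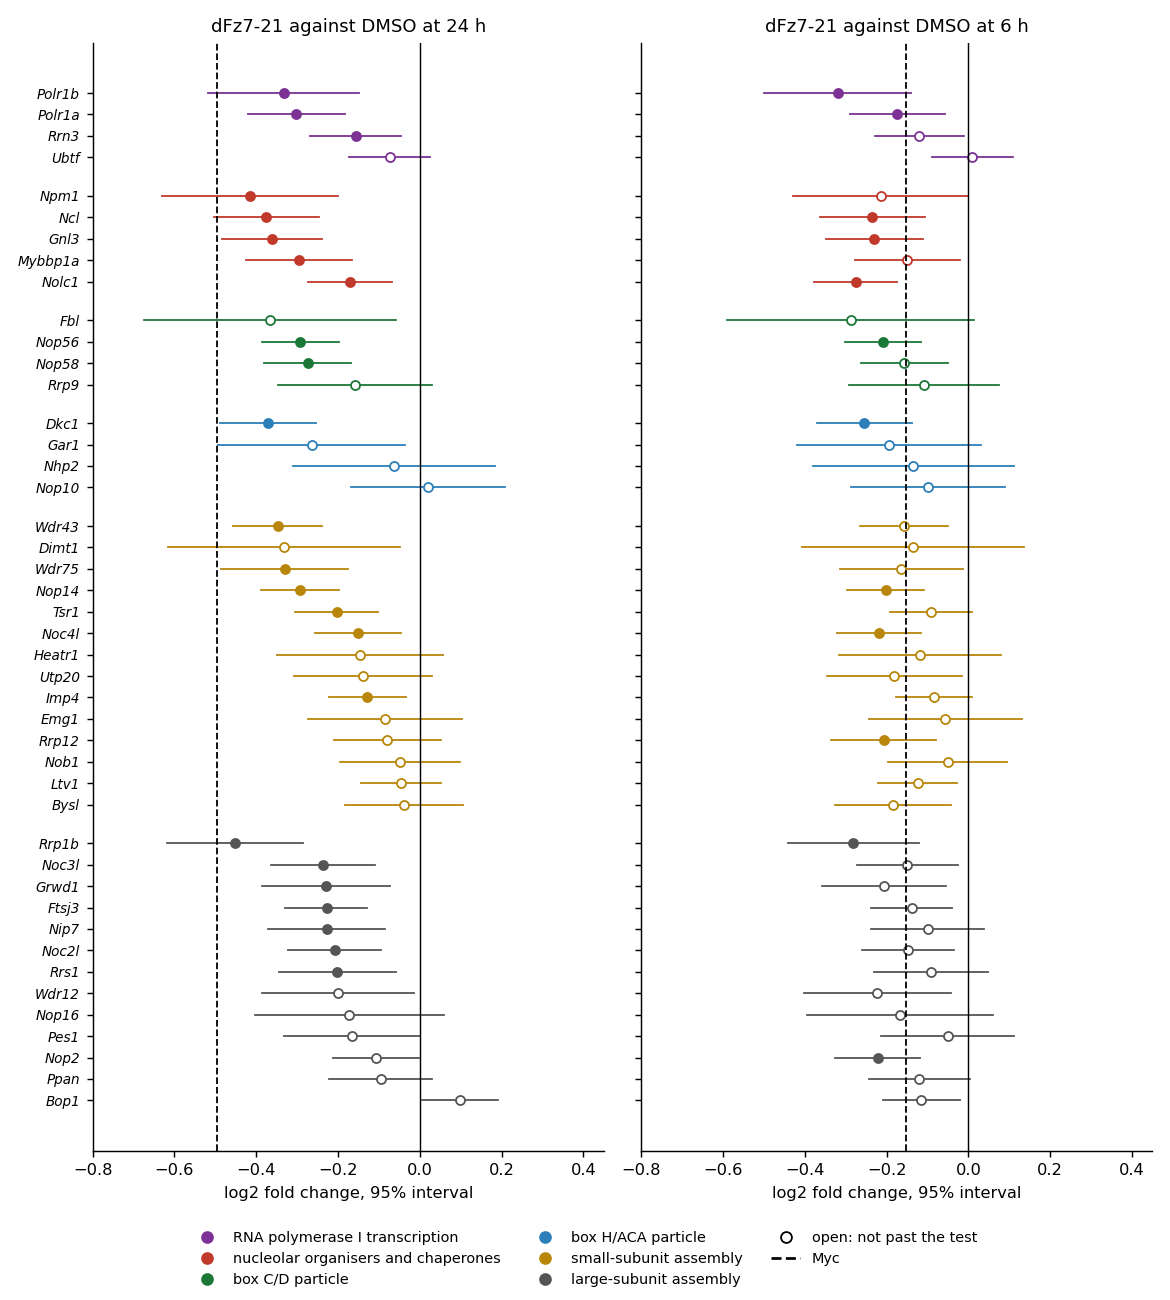
Log2 fold change of each member in dFz7-21 against DMSO at 24 h (left) and 6 h (right), ordered by role, with 95% intervals from the spread between libraries. Filled points passed the test, open points did not, and the dashed line is Myc. At 24 h 24 points are filled and all members lie to the right of Myc, while at 6 h 12 are filled and 23 lie to its left.

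Of the RNA polymerase I group, 3 of 4 members fell against DMSO at 24 h and 2 of 4 at 6 h. Against Fz7-21S, 0 of 4 were called at either time, with medians of -0.13 at 24 h and -0.10 at 6 h. Without Fz7-21S 24 h replicate 4, Polr1b was called against Fz7-21S at 24 h (-0.33, edgeR adjusted p = 5.34e-05). Polr1b, the second-largest subunit of the polymerase, had 54.2, 48.7, 44.9 and 51.3 CPM with dFz7-21 at 24 h, against 61.2, 60.4, 62.1 and 67.0 CPM with DMSO. The groups did not overlap, with a log2 change of -0.33 ± 0.09 (edgeR adjusted p = 0.005). At 6 h Polr1b had 78.4, 80.8, 77.1 and 82.2 CPM with dFz7-21, against 104, 99.4, 101 and 93.2 CPM with DMSO, again without overlap (-0.32 ± 0.09, edgeR adjusted p = 0.0165). That call missed the threshold without dFz7-21 replicate 1 or 3 or without DMSO replicate 1 (adjusted p from 0.0553 to 0.0599), and without the 3 libraries with mesenchymal transcripts (0.161). Polr1a, the largest subunit, changed by -0.30 at 24 h and by -0.17 at 6 h, and the call at 6 h was lost in 7 of 8 fits that left out a library and without the 3 libraries (adjusted p = 0.263).

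Rrn3, which recruits the polymerase to the promoter of the ribosomal RNA genes, had 58.8, 56.8, 56.9 and 61.7 CPM with dFz7-21 at 24 h, against 66.5, 63.4, 63.4 and 67.6 CPM with DMSO. The 2 groups did not overlap, but the log2 change of -0.16 ± 0.05 (edgeR adjusted p = 0.0256) missed the threshold without dFz7-21 replicate 1, 2 or 3 or without DMSO replicate 1 or 4 (adjusted p from 0.0718 to 0.145). With all libraries it also missed with RLE factors (0.0546) and with no filter on low counts (0.0947), and it missed without the 3 libraries with mesenchymal transcripts (0.0807). Ubtf, which binds the ribosomal RNA genes and keeps their chromatin open, had 208, 196, 204 and 200 CPM with dFz7-21 at 24 h, against 214, 215, 202 and 219 CPM with DMSO. Those groups overlapped, and Ubtf did not pass at either time (-0.07 at 24 h and 0.009 at 6 h). With library totals only, Ubtf passed as lower at 24 h (edgeR adjusted p = 0.00465).

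Of the nucleolar organisers and chaperones, 5 of 5 were lower at 24 h (median log2 change -0.36) and 3 of 5 at 6 h. Ncl (nucleolin), an abundant RNA-binding protein of the nucleolus, had 999, 949, 901 and 992 CPM with dFz7-21 at 24 h, against 1299, 1225, 1190 and 1268 CPM with DMSO. All 4 dFz7-21 libraries were below all DMSO libraries, with a log2 change of -0.38 ± 0.06 (edgeR adjusted p = 3.77e-05). At 6 h Ncl had 1411, 1428, 1379 and 1558 CPM with dFz7-21, against 1756, 1624, 1698 and 1717 CPM with DMSO (-0.24 ± 0.06, adjusted p = 0.013, or 0.0814 without the 3 libraries with mesenchymal transcripts).

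Npm1 (nucleophosmin), the histone and ribosome chaperone of the nucleolar granular region, had 154, 152, 139 and 174 CPM with dFz7-21 at 24 h, against 224, 201, 203 and 196 CPM with DMSO. No library overlapped, with a log2 change of -0.42 ± 0.10 (edgeR adjusted p = 0.00311). At 6 h Npm1 had 188, 182, 184 and 204 CPM with dFz7-21, against 233, 208, 224 and 214 CPM with DMSO (-0.21, adjusted p = 0.216). An edgeR fit of only the groups compared did call Npm1 lower at 6 h (adjusted p = 0.00057). Npm1 has processed pseudogenes, so reads that do not align uniquely may be missing from its counts.

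Gnl3 (nucleostemin), a nucleolar GTPase of proliferating and stem cells, had 89.1, 87.3, 80.6 and 95.4 CPM with dFz7-21 at 24 h, against 119, 109, 111 and 113 CPM with DMSO. The groups were apart, by -0.36 ± 0.06 on the log2 scale (edgeR adjusted p = 3.15e-05). At 6 h Gnl3 had 155, 146, 146 and 153 CPM with dFz7-21, against 187, 170, 177 and 169 CPM with DMSO (-0.23 ± 0.06, adjusted p = 0.00935, or 0.1 without the 3 libraries). Mybbp1a, a nucleolar Myb-binding protein, fell at 24 h (-0.30, adjusted p = 0.000643).

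Nolc1, a chaperone of snoRNA particles, was the member with the smallest p at 6 h. It then had 238, 256, 235 and 258 CPM with dFz7-21, against 312, 302, 288 and 294 CPM with DMSO, without overlap (-0.28 ± 0.05, edgeR adjusted p = 0.00038, or 0.0325 without the 3 libraries). At 24 h it had 184, 171, 175 and 173 CPM with dFz7-21, against 200, 193, 190 and 208 CPM with DMSO. The groups were again apart, by -0.17 ± 0.05 (adjusted p = 0.00895), and this call missed the threshold without dFz7-21 replicate 2 or replicate 3 (adjusted p = 0.0594 and 0.0511).

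Box C/D particles, which guide methylation of ribose, had 2 of 4 members lower at 24 h and 1 of 4 at 6 h. Nop56, a core protein of these particles, had 93.1, 83.4, 91.3 and 94.6 CPM with dFz7-21 at 24 h, against 112, 114, 106 and 112 CPM with DMSO. At 6 h it had 180, 174, 181 and 189 CPM with dFz7-21, against 216, 207, 205 and 209 CPM with DMSO. The groups were apart at both times, by -0.29 ± 0.05 at 24 h (edgeR adjusted p = 1.75e-05) and by -0.21 ± 0.04 at 6 h (adjusted p = 0.00231, or 0.0658 without the 3 libraries). Nop58, the partner of Nop56, fell at 24 h (-0.27, adjusted p = 0.000193).

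Fbl (fibrillarin), the methyltransferase of the box C/D particle, had 14.5, 9.97, 13.5 and 11.8 CPM with dFz7-21 at 24 h, against 13.0, 21.8, 14.3 and 15.4 CPM with DMSO. The groups overlapped, and DMSO replicate 2 was the highest. Its log2 change of -0.37 ± 0.15 did not pass at edgeR adjusted p = 0.0582, and did pass without DMSO replicate 1 (0.0285) or without dFz7-21 replicate 1 (0.039). It also passed without the 4 libraries that stand apart (0.0494) and with library totals only (0.0181). Fbl has a named pseudogene, so its unique counts may be incomplete.

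Box H/ACA particles, which guide pseudouridylation, had 1 of 4 members lower than with DMSO at each time, and it was Dkc1 (dyskerin), the pseudouridine synthase. Against Fz7-21S, 4 of 4 were lower at 24 h and 1 of 4 at 6 h. The 24 h calls of Nhp2 and Nop10 against Fz7-21S were lost without Fz7-21S replicate 4, and also without any 1 of the dFz7-21 libraries. Nop10 missed the threshold in DESeq2 as well (adjusted p = 0.0698). The 6 h call against Fz7-21S, that of Dkc1, was lost without dFz7-21 replicate 2 or without any 1 of the Fz7-21S libraries. Dkc1 had 79.7, 72.4, 69.5 and 77.4 CPM with dFz7-21 at 24 h, against 98.5, 91.6, 98.5 and 97.6 CPM with DMSO. At 6 h it had 145, 124, 145 and 146 CPM with dFz7-21, against 175, 167, 167 and 159 CPM with DMSO. There was no overlap at either time, and the log2 changes were -0.37 ± 0.06 at 24 h (edgeR adjusted p = 1.59e-05) and -0.26 ± 0.06 at 6 h (adjusted p = 0.00301, or 0.0801 without the 3 libraries). Nop10, a small scaffold protein of the same particle, had 90.2, 90.2, 84.3 and 97.7 CPM with dFz7-21 at 24 h, against 87.4, 91.6, 93.3 and 85.3 CPM with DMSO. Those values overlapped widely, and the difference was 0.02 ± 0.09, with a 95% interval of -0.17 to 0.21.

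Small-subunit assembly had 6 of 14 members lower at 24 h (median -0.14) and 3 of 14 at 6 h. Wdr43, a component of the small-subunit processome, had 110, 102, 97.6 and 116 CPM with dFz7-21 at 24 h, against 140, 137, 127 and 138 CPM with DMSO. The groups were apart, by -0.35 ± 0.05 on the log2 scale, with the smallest p of any member at 24 h (edgeR adjusted p = 1.37e-05). At 6 h Wdr43 had 197, 185, 196 and 197 CPM with dFz7-21, against 224, 212, 217 and 210 CPM with DMSO, a difference of -0.16 that just missed the threshold (adjusted p = 0.0538). Wdr43 passed at 6 h in DESeq2 (0.0177), with only the groups compared (0.00177) and without the 4 libraries that stand apart (0.0348). Nop14, also of the processome, had 67.1, 62.3, 67.4 and 67.5 CPM with dFz7-21 at 24 h, against 83.6, 79.1, 80.0 and 81.1 CPM with DMSO. It fell at 24 h by 0.29 ± 0.05 on the log2 scale (adjusted p = 2.16e-05) and, with 107, 103, 97.8 and 105 CPM against 126, 112, 115 and 121 CPM in DMSO, at 6 h (-0.20 ± 0.05, adjusted p = 0.00381, or 0.0534 without the 3 libraries).

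Among the late factors of the small subunit, the endonuclease Nob1 (-0.05), Ltv1, which acts in export (-0.05), and Bysl (-0.04) did not pass at 24 h. Dimt1, an rRNA dimethyltransferase, changed by -0.33 and did not pass (edgeR adjusted p = 0.0632). Dimt1 is also the weakest member, at 3.97 to 4.57 CPM with dFz7-21 and 4.45 to 6.19 CPM with DMSO at 24 h. It shares 31.9% of its exon bases with Kif2a on the other strand, and Tsr1, a GTPase-like factor of late 40S assembly that fell at 24 h (-0.20), shares 32.3% with Srr. Whether counting used strand is not given in the sources used here, so reads of these partners cannot be told apart.

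Large-subunit assembly had 7 of 13 members lower at 24 h (median -0.20) and 2 of 13 at 6 h. Rrp1b, a nucleolar protein of the pre-60S particles, had the largest fall of the 44. Its levels were 42.8, 37.2, 37.8 and 37.8 CPM with dFz7-21 at 24 h, against 52.6, 53.5, 49.5 and 57.0 CPM with DMSO, without overlap (-0.45 ± 0.08, edgeR adjusted p = 9.8e-05). Bop1 and Pes1, which together with Wdr12 form a complex that matures the large subunit, did not pass at 24 h. Bop1 had 164, 157, 156 and 160 CPM with dFz7-21, against 161, 138, 149 and 146 CPM with DMSO, and was the only member besides Nop10 with a positive difference (0.10 ± 0.05, adjusted p = 0.0954). It passed as higher without DMSO replicate 1 (adjusted p = 0.0128), without the 4 libraries that stand apart (0.0155) and in DESeq2 (0.0292). Pes1 had 51.5, 50, 55.5 and 56.6 CPM with dFz7-21, against 61.7, 57.0, 59.1 and 61.8 CPM with DMSO. Its groups did not overlap, yet the difference of -0.17 ± 0.08 did not pass (adjusted p = 0.112), and Wdr12 did not pass either (-0.20, adjusted p = 0.086). Pes1 did pass with library totals only (0.00914), with only the groups compared (0.0276) and without the 4 libraries that stand apart (0.0235). Against Fz7-21S at 24 h, Pes1 and Wdr12 were called lower.

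**Figure D3:**
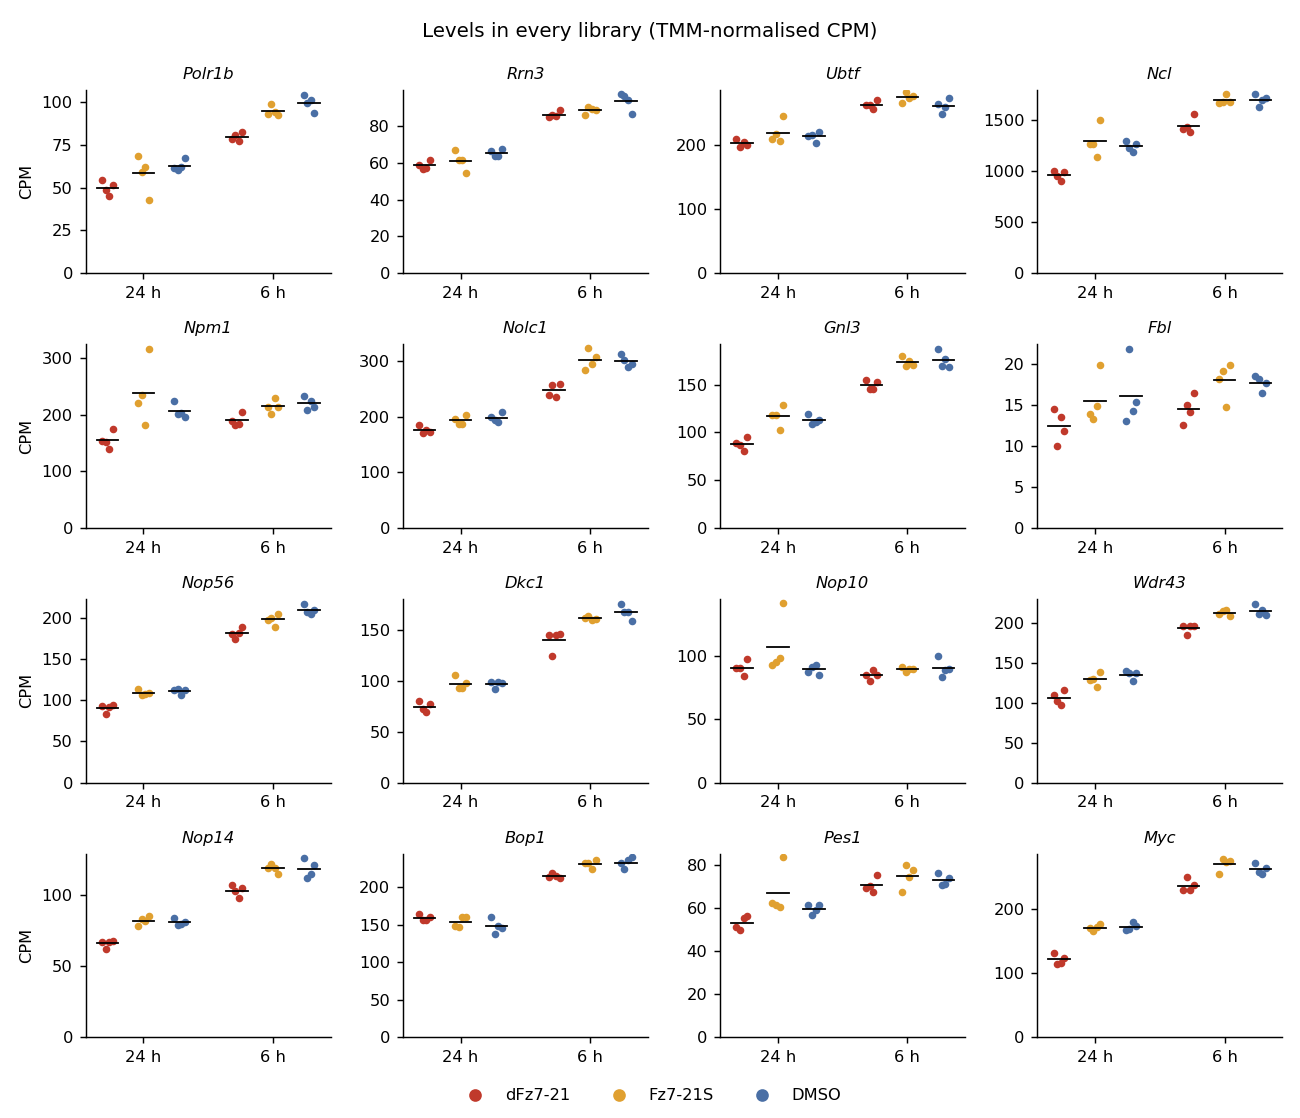
TMM-normalised CPM of 15 members and Myc in every library, with 24 h on the left and 6 h on the right of each panel and the group mean as a bar (n = 4). Ncl has 901 to 999 CPM with dFz7-21 against 1190 to 1299 CPM with DMSO at 24 h, and a single Fz7-21S 24 h library is far above its group for Nop10, Npm1 and Pes1.

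At 6 h, 12 of the 44 members were lower with dFz7-21 than with DMSO and 0 were higher, against 5.0% of all genes tested lower and 6.05% higher. The median log2 change of the members was -0.16, 43 of 44 were below 0, and the range was -0.32 for Polr1b to 0.009 for Ubtf. At an unadjusted p below 0.05 edgeR had 26 lower and 0 higher (1695 and 1897 of all genes), and DESeq2 called 18 lower and 0 higher. Of the 12 calls, 8 held whichever library was left out, and those of Polr1a, Polr1b, Rrp12 and Rrp1b did not. Between the times, 10 members were lower at both, 14 at 24 h only, 2 at 6 h only (Nop2 and Rrp12) and 18 at neither. Without the 3 libraries with mesenchymal transcripts only 1 member, Nolc1, was called at 6 h, while the median was -0.15. That share of the members was near the share of all genes called lower in the same fit. A fit of the 8 libraries of this comparison alone called 34, and library totals alone called 23 (over all genes 1242 lower and 656 higher, beside 771 and 933 with TMM). The fit of 8 libraries also called more of all genes, and the all-gene counts of these fits are given with the processing below. So the direction and median at 6 h were stable over these fits. The number of calls was not, nor was its excess over all genes.

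Whether the dFz7-21 effect differed between the times was tested as an interaction. For 1 of 44 members, Bop1, it passed, at 0.21 higher at 24 h than at 6 h on the log2 scale (edgeR adjusted p = 0.0275), and 0 members passed in the other direction. Over all genes tested, 7.37% changed upward and 5.78% downward. The Bop1 call missed the threshold without DMSO 6 h replicate 3 or 4 or without DMSO 24 h replicate 2 or 4 (adjusted p from 0.0535 to 0.0684). At an unadjusted p below 0.05 edgeR had 1 member lower and 1 higher (all genes 12.4% and 13.0%), and DESeq2 called 0 and 1. Myc passed in the downward direction, with -0.34 (adjusted p = 0.000913), and the median of the members was -0.07. Thus the dFz7-21 effect on Myc was larger at 24 h, and for 43 members a change of the effect was not detected.

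Against Fz7-21S, the other treatment, 28 of 44 members were lower with dFz7-21 at 24 h and 0 were higher, with 17.2% of all genes lower and 16.5% higher. The median log2 change was -0.25. DESeq2 called 24 lower and 0 higher, and at an unadjusted p below 0.05 edgeR had 33 and 0 (all genes 22.5% and 21.0%). A fit of the 8 libraries of this comparison alone called 10, and of the 28 calls 17 held whichever library was left out. This comparison holds Fz7-21S 24 h replicate 4, without which 24 members were called and the median was -0.17. Without dFz7-21 24 h replicate 3, 18 were called, and without the 4 libraries that stand apart 19 were called, at a median of -0.15. Of all genes, 1877 to 2592 were lower with 1 library left out, and the count without the 4 is not given here. With library totals alone, 3571 of all genes were lower and 1935 higher, beside 2651 and 2551 with TMM. Npm1 was at 220, 234, 181 and 315 CPM in the Fz7-21S libraries at 24 h, and the highest of these is replicate 4. Ncl was at 1262, 1269, 1138 and 1497 CPM there, and all 4 values were above the dFz7-21 values (log2 change -0.43 ± 0.06, edgeR adjusted p = 8.73e-06). Myc changed by -0.49 (adjusted p = 2.57e-08), and 2 members, Npm1 (-0.62) and Gar1 (-0.52), had a larger fall. Without Fz7-21S replicate 4, Npm1 differed by -0.43 and Gar1 by -0.29, both smaller than Myc at -0.46, and only Rrp1b was level with it (-0.46).

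At 6 h, 10 of 44 members were lower and 0 higher with dFz7-21 than with Fz7-21S, against 3.83% lower and 3.21% higher over all genes. The median was -0.15, and all 44 members were below 0. Of the 10 calls, 3 held whichever library was left out. Leaving out dFz7-21 replicate 1, 2 or 3 left 6, 5 and 4 calls, and leaving out Fz7-21S replicate 2, 3 or 4 left 5, 5 and 6. DESeq2 called 16 lower and 0 higher, and at an unadjusted p below 0.05 edgeR had 27 and 0 (all genes 9.23% and 8.94%). With library totals alone, 777 of all genes were lower and 374 higher, beside 591 and 495 with TMM. Myc changed by -0.19 (adjusted p = 0.0113), beyond the members' median, and 13 members had a larger fall. That call of Myc was lost without dFz7-21 replicate 1 or 3 or Fz7-21S replicate 2 (adjusted p from 0.0509 to 0.054). Nolc1 again had the smallest p, with 283, 322, 294 and 306 CPM in Fz7-21S libraries and a log2 change of -0.29 ± 0.05 (edgeR adjusted p = 0.000489).

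No member differed between Fz7-21S and DMSO in edgeR, with 0 lower and 0 higher at both times. Over all genes, 0.0% were lower and 0.259% higher at 24 h, and 0.0% lower and 0.00648% higher at 6 h. At an unadjusted p below 0.05, 2 members (4.55%) were lower and 5 (11.4%) higher at 24 h, both shares below those of all genes (9.91% and 13.9%). At 6 h there were 0 and 0, beside 1.92% and 2.06% of all genes, and DESeq2 called 0 and 0 at either time. The median of the members was 0.03 at 24 h and -0.005 at 6 h, near 0 and of either sign depending on the fit. The 95% intervals of the 44 differences lay between -0.46 and 0.52 at 24 h and between -0.38 and 0.32 at 6 h, which sets the size of a difference that these libraries could miss. Doses are not given, so whether dFz7-21 and Fz7-21S were used at matched doses is unknown.

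The members were also lower at the later time without any dFz7-21. In DMSO, 39 of 44 members were lower at 24 h than at 6 h and 0 were higher, against 24.9% of all genes lower and 27.3% higher. All 44 log2 changes were below 0, with a median of -0.64, and all 39 calls held whichever of the 8 libraries was left out. At an unadjusted p below 0.05 edgeR had 40 lower and 0 higher (all genes 27.7% and 29.5%), and DESeq2 called 39 and 0. Rrp1b changed most (-1.01 ± 0.08), followed by the processome scaffold Heatr1 (-0.99), Rrp9 of the U3 particle (-0.93) and Nop56 (-0.92). Nop56 had 112, 114, 106 and 112 CPM at 24 h, against 216, 207, 205 and 209 CPM at 6 h. The 5 members without a call were Nhp2, Emg1, Fbl, Npm1 and Nop10. Nop10 had 85.3 to 93.3 CPM at 24 h and 83.7 to 99.9 CPM at 6 h. Myc changed by -0.61 in the same comparison (edgeR adjusted p = 1.09e-10), and 24 members had a larger fall.

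Further genes of the pathway were looked at beside the 44. Of 50 further small-subunit factors, 25 were lower and 4 higher with dFz7-21 than with DMSO at 24 h (median log2 change -0.16). Over all genes these shares were 17.7% and 18.2%. The first of these by p were Nop9 (0.43), Riok3 (0.27) and Utp15 (-0.37), so 2 of the 3 were higher. Of 51 further large-subunit factors, 14 were lower and 3 higher (median -0.13), with Ddx31 at -0.33. Of 17 further genes listed for RNA polymerase I, 14 were matched and tested, some of them subunits shared with other polymerases. Of the 14, 3 (21.4%) were lower and 0 higher, near the share of all genes. They were led by Tcof1 (-0.35), a nucleolar partner of the polymerase. Of 14 genes of the exosome, which trims ribosomal RNA, 5 were lower and 0 higher. Of 22 genes of RNA polymerase III, which makes 5S rRNA and tRNA, 4 (18.2%) were lower and 1 higher, again near that share. Against Fz7-21S at 24 h, 6 of these polymerase I genes (42.9%) and 8 of polymerase III (36.4%) were lower, beside 17.2% of all genes. In both lists 0 were higher. That comparison holds Fz7-21S replicate 4, and counts of these lists without it are not given here. For Fz7-21S against DMSO at 24 h, 0 genes of either list were called. The medians there were 0.151 for polymerase I and 0.049 for polymerase III. Against DMSO at 24 h, 0 of the 79 cytosolic ribosomal proteins were lower and 1 higher (median -0.02). Of the 77 mitochondrial ones, 0 were lower and 8 higher (median 0.08). Without the 3 libraries with mesenchymal transcripts, 15 small-subunit and 7 large-subunit factors were lower, and without the 4 libraries that stand apart 39 mitochondrial ribosomal proteins were higher. Against Fz7-21S at 24 h, 36 of the 79 cytosolic ones were lower and 0 higher (median -0.33). Without Fz7-21S replicate 4, the library with short gene models high, 13 were lower and 0 higher (median -0.07). The mitochondrial ones had 8 lower and 0 higher against Fz7-21S (median -0.11), and 1 lower and 12 higher without that library (median 0.06). Shares of all genes in the fits without libraries are not given here, so those counts have no matching background.

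Other Myc targets had 15 of 40 lower and 2 higher at 24 h (median -0.10), among them Ppat of purine synthesis (-0.79) and Cdk4 (-0.51). S phase and mitosis genes had 23 of 33 lower and 0 higher with dFz7-21 (median -0.22). Nucleolar stress and p53 targets had 1 lower and 6 higher of 20. By p, Cdkn1a (0.72) led that list, followed by Btg2 (-0.265), which was the 1 called lower. Over all genes, 17.7% were lower and 18.2% higher at 24 h. Marker genes of epithelial cell types moved as well. All 16 crypt stem cell genes were lower (median -1.54), and 19 of 20 enterocyte genes were higher and 1 lower (median 0.68). At 6 h, 5.0% of all genes were lower with dFz7-21 than with DMSO and 6.05% higher. Of the 16 crypt stem cell genes, 13 were then lower and 0 higher (median -0.69). Of 33 S phase and mitosis genes, 17 were lower and 0 higher (median -0.18), and 2 of 20 enterocyte genes were higher and 0 lower (median 0.07). Without the 3 libraries with mesenchymal transcripts these counts were 11 stem cell and 11 S phase and mitosis genes lower, and 0 enterocyte genes higher. The part of these shifts in the members' change was not tested.

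In DMSO over time, S phase and mitosis genes had 23 of 33 higher and 6 lower at 24 h than at 6 h (median 0.66), while 44 of 50 further small-subunit factors were lower and 0 higher (median -0.45). Of 51 further large-subunit factors, 46 were lower and 1 higher (median -0.54). Cytosolic ribosomal proteins had 2 of 79 lower and 4 higher (median 0.05). Enterocyte genes had 15 of 20 higher and 3 lower (median 0.71), and crypt stem cell genes 7 of 16 higher and 1 lower (median 0.24). Over all genes tested, 24.9% were lower and 27.3% higher in this comparison.

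**Figure D4:**
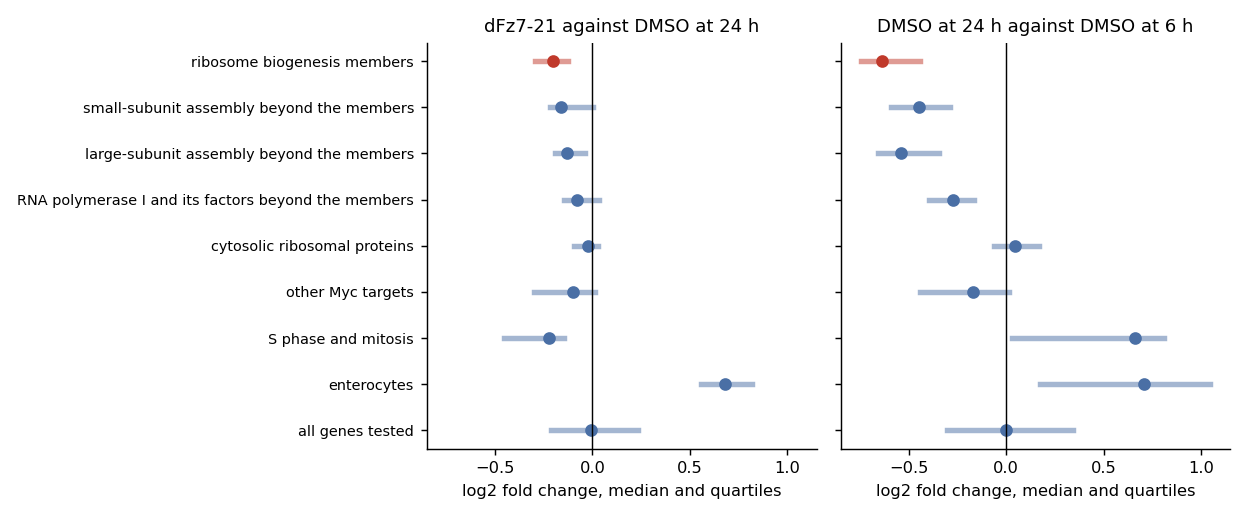
Median (point) and quartiles (bar) of the log2 fold change of the 44 members (red), of other gene lists and of all genes tested (blue), for dFz7-21 against DMSO at 24 h (left) and DMSO at 24 h against DMSO at 6 h (right). S phase and mitosis genes have a median of -0.22 on the left and 0.66 on the right, whereas the members are below 0 in both (-0.20 and -0.64).

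Within each time the members were correlated with Myc over the libraries of all treatments, with group means left in. Over the 12 libraries of 24 h, the Pearson correlation of log2 CPM with Myc had a median of 0.65 over the members (range -0.41 to 0.96), beside 0.01 over all genes tested. At 6 h the median was 0.75 (range 0.13 to 0.95), beside -0.03 over all genes. The points share treatment groups and libraries, so these are descriptions.

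The Myc-type E-box is shown because it is the DNA motif through which Myc is known to act on such genes. RefSeq promoter windows (GRCm38.p6, 250 bases before to 50 after the start) were given for 39 members and for 11334 of the genes tested. The motif CACGTG reads the same on both strands and was found in 10 of the 39 (25.6%), against 11.5% of the genes tested. The related CACGCG, searched on both strands, was in 12 members (30.8%), against 19.1%. Either motif was in 20 members (51.3%), against 28.0%. The stretch around each CACGTG, in capitals, is printed 5′ to 3′ along the gene, with the position of its first base counted from the start as 1.
Imp4, chr1:34439696-34439725, plus strand, position -121: acggtcttagacCACGTGacatcccaaatc
Nop2, chr6:125131811-125131840, plus strand, position -60: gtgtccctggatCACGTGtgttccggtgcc
Grwd1, chr7:45830740-45830767, minus strand, position 35: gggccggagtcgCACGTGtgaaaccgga
Ltv1, chr10:13193092-13193121, minus strand, position 29: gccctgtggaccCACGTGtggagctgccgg
Utp20, chr10:88826765-88826789, minus strand, position 38: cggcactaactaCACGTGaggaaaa
Pes1, chr11:3963965-3963994, plus strand, position 3: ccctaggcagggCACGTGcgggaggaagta
Mybbp1a, chr11:72441355-72441376, plus strand, position 41: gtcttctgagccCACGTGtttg
Tsr1, chr11:74898092-74898121, plus strand, position 25: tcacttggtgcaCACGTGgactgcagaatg
Rrn3, chr16:13780472-13780501, plus strand, first of 2, position -215: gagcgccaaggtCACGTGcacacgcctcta
Wdr43, chr17:71616220-71616249, plus strand, position 18: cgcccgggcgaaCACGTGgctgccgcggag

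Of these 10 members, 6 were lower with dFz7-21 than with DMSO at 24 h, with a median log2 change of -0.16. Of the 29 members with a window and no CACGTG, 16 were lower, with a median of -0.23. At 6 h the counts were 1 of 10 and 10 of 29. The 29 include members with the related CACGCG, and 5 members had no window. Whether the motif bears on the change was not tested, and a match in this window is no evidence of binding.

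A further feature is that some genes of this kind are known to carry snoRNA genes inside their introns, so that one transcript yields both the protein and the guide RNA. Annotated snoRNAs were counted where they lay within a member on its strand, and whether they lie in introns was not checked. In the GENCODE annotation (M21) 8 members had such an entry: Dkc1, Gnl3, Ncl, Nop56, Nop58, Ppan, Tsr1 and Wdr43. Of these, 7 were lower with dFz7-21 than with DMSO at 24 h (all but Ppan, median -0.32), against 17 of the other 36 (median -0.17). At 6 h the counts were 4 of 8 and 8 of 36. This grouping was made with the values in view and was not tested. The snoRNAs themselves were not analysed here, since the libraries hold polyadenylated RNA.

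Levels can be compared between members on the deposited RPKM, which divide by the length of the gene model. Ranks depend on that length, which was 3.03 times the members' median for Ncl. For Nop10, Nhp2 and Emg1 it was 0.257, 0.349 and 0.363 times that median. In DMSO at 24 h the most abundant per length were Emg1 (164 ± 4.52 RPKM), Nhp2 (156 ± 5.65), Ncl (142 ± 5.66) and Nop10 (120 ± 4.78). The least abundant were Dimt1 (1.65 ± 0.258 RPKM) and Wdr12 (6.43 ± 0.646), as mean ± SD with n = 4. Of these, Ncl passed as lower with dFz7-21 than with DMSO at 24 h, and Emg1, Nhp2, Nop10, Dimt1 and Wdr12 did not pass.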

How the data were processed

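The authors deposited 1 file per sample with a count and an RPKM value for each of 36528 Entrez gene IDs. The deposited counts are uniquely aligned reads of each gene model, and the deposited RPKM carry a size factor adjustment, per the file headers. The submitters' processing notes name GSNAP and GRCm38; annotation, strand setting and filters: not given in the sources used here. Symbols came from RefSeq (31049 IDs) and GENCODE (78 IDs).

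Counts were tested with edgeR 4.0.16 in R 4.3.3: TMM factors, filterByExpr on the 6 groups (15429 genes kept), 1 robust quasi-likelihood fit of all 24 libraries with a coefficient per group, and Benjamini-Hochberg adjustment over all genes tested. Log2 CPM used a prior count of 2. Alternatives were DESeq2 1.42.0, RLE factors, library totals alone, no filter, a replicate block, only the groups compared, and left-out libraries. The pipeline was tested on simulated data.

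The members, the 13 other lists and the named genes were chosen with earlier results of these data known. Values in every library are given for the members with the smallest p in the comparisons with DMSO and for 10 fixed members; Rrp1b was added after its values were seen. Replicates differed by more than sampling noise (chi-square over degrees of freedom 2.87 to 96.7 between pairs). Nothing in the labels says whether replicates were different cultures or mice, so the p-values rest on a spread between samples that may be technical.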

Additional observations from a re-analysis of the deposited data

Results flagged for a closer look

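In 7 of 102 groups of 4 libraries, for the 15 members and Myc given in every library and the members' mean, 1 library lay far from the other 3 by Dixon's test at its 95% level. Chance gives about 1 in 20 such groups. In Fz7-21S 24 h replicate 4, Nop10 stood at 142 CPM, against 93.3 to 98.6 CPM in the others, and Pes1 at 83.8 CPM, against 60.5 to 62.4 CPM. This is the library with short gene models high, and the part of that shift in these values was not tested. In dFz7-21 6 h replicate 2, Wdr43 was low at 185 CPM (others 196 to 197 CPM) and Dkc1 at 124 CPM (others 145 to 146 CPM). Dkc1 was low in DMSO 24 h replicate 2 at 91.6 CPM (others 97.6 to 98.5 CPM). Nop14 was low in dFz7-21 24 h replicate 2 at 62.3 CPM (others 67.1 to 67.5 CPM). Ncl was high in Fz7-21S 6 h replicate 3 at 1754 CPM (others 1670 to 1680 CPM).

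The dFz7-21 effect differed between 24 h and 6 h by an interaction term for 1 member, Bop1, by 0.21 on the log2 scale (edgeR adjusted p = 0.0275), and for Myc, by -0.34 (adjusted p = 0.000913).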

How the results depend on the processing

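Neither Myc nor a member changed sign where it was called, and under every alternative run the members' median stayed below 0 with dFz7-21, whether set against DMSO or Fz7-21S, and in DMSO over time. The median for Fz7-21S against DMSO, where no member was called, changed sign: it ran from -0.009 to 0.03 at 24 h and from -0.028 to 0.013 at 6 h. For dFz7-21 against DMSO at 24 h, 17 to 25 members were lower with 1 library left out and 0 to 1 higher, and 1 was higher without the 4 libraries that stand apart and in DESeq2. At 6 h, 23 members were lower with library totals only, 34 with only the groups compared, 1 without the 3 libraries with mesenchymal transcripts and 22 without the 4 libraries that stand apart (an alternative added after seeing the data), beside 12. For dFz7-21 against Fz7-21S at 24 h, only the groups compared gave 10 lower, beside 28, and leaving out 1 library 18 to 26. At 6 h the values were 17 with library totals only, 35 with only the groups compared, 29 without the 4 libraries and 16 in DESeq2, beside 10, and 4 to 11 with 1 library left out. For Fz7-21S against DMSO at 24 h, 0 to 1 members were lower and 0 to 1 higher with 1 library left out. For the interaction, library totals only gave 1 member lower, no filter 0 higher, and 0 to 1 were higher with 1 library left out. Apart from fewer libraries where some were left out, the cause of these shifts was not tested.

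Over all genes, the counts lower and higher for dFz7-21 against DMSO at 6 h (771 and 933) were 1799 and 1841 with only the groups compared, 333 and 365 without the 3 libraries, at least 566 and 606 with 1 library left out, and 1242 and 656 with library totals only, which turns the balance to lower. Against Fz7-21S they were 1182 and 1123 at 24 h with only the groups compared (beside 2651 and 2551). At 6 h (591 and 495) they were 1598 and 1561 with only the groups compared, 1360 and 1262 without the 4 libraries, 329 higher with no filter, and at least 374 and 264 with 1 library left out. For Fz7-21S against DMSO at 24 h (0 and 40) DESeq2 gave 18 and 101, only the groups compared 0 higher, and leaving out 1 library 0 to 510 lower and 22 to 880 higher, the highest without Fz7-21S replicate 1. At 6 h (0 and 1) DESeq2 gave 7 and 3. The interaction (892 and 1137) gave 1512 and 1906 with only the groups compared and 1515 and 2164 without the 4 libraries.

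Same-numbered replicates deviated from their group means with correlations of -0.1 to 0.12, and 1 to 3 of 4 libraries in a comparison correlated best with their own number, so the numbers were not taken to pair the samples. With the replicate block, the members lower numbered 25 (24 h) and 15 (6 h) against DMSO, 28 and 11 against Fz7-21S, and 40 for DMSO over time. Dimt1 and Fbl had the lowest CPM of the members, so depth limits them most.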
